A study of Mus musculus with 4 samples.

Results

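Retnla, Chil3 and Arg1, 3 of the 28692 genes in the table, were followed across the monocytes and macrophages of the mouse colon. They are the genes most often used to mark alternative activation of mouse macrophages. They were taken up because Retnla stood out among the genes lower in mice exposed to diesel exhaust particles (DEP), so all DEP against PBS values of these 3 genes are a description and carry no test. Cells of the colon lamina propria, the connective tissue under the gut epithelium, had been sorted for CD11b and for Ly6C or CD64 and sequenced from the 3' end of each transcript, with a unique molecular identifier (UMI) per captured molecule. The 4 mice were male C57/Bl6N: DEP 11 and DEP 13 had been gavaged 5 times weekly, over some 6 months, with 12 µg of DEP in 200 µL of phosphate-buffered saline (PBS), and PBS 2 and PBS 3 with PBS alone. The labels used here give no age.

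Alternative activation is the state that interleukin 4 (IL-4) and IL-13 induce in macrophages through the receptor chain Il4ra and the transcription factor Stat6. Retnla encodes RELMalpha, a small secreted protein of type 2 immunity and tissue repair. Chil3 encodes Ym1, a secreted chitinase-like protein without chitinase activity that bone marrow derived monocytes also make. Arg1 encodes arginase 1, which turns arginine into ornithine and competes with the nitric oxide synthase Nos2 for the same substrate. In the colon, Ly6c2-expressing monocytes enter from the blood and mature into macrophages that lose Ly6c2 and gain C1qa, a subunit of complement C1q.

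On mm10, Retnla (ENSMUSG00000061100) lies on chromosome 16 from 48842551 to 48844461 on the plus strand with 4 exons, between its paralogues Retnlb and Retnlg. Chil3 (ENSMUSG00000040809) lies on chromosome 3 from 106147554 to 106167564 on the minus strand with 11 exons, next to its paralogue Chil4. Arg1 (ENSMUSG00000019987) lies on chromosome 10 from 24915221 to 24927484 on the minus strand with 8 exons. Over all 6954 barcodes the table held 1559 Retnla, 6735 Chil3 and 37 Arg1 UMIs, against 325 of Chil4, 110 of Arg2, 29 of Retnlb, 3 of Retn and 2 of Retnlg. How reads that fit both Chil3 and Chil4 were treated is unknown here, so the level of each is uncertain in that respect. Promoters from RefSeq (GRCm38.p6) held Retnla and Chil3, and windows around the letters known as STAT sites are shown. Both genes are classical Stat6 targets, while their highest levels lay in different groups of cells of these mice. They were not exclusive: among barcodes with at least 1000 UMIs, 11, 11, 69 and 64 of DEP 11, DEP 13, PBS 2 and PBS 3 held UMIs of both. Retnla had the motif TTCNNNNGAA and Chil3 the motif TTCNNNGAA, in capitals below.
Retnla, chr16:48842424-48842513, plus strand: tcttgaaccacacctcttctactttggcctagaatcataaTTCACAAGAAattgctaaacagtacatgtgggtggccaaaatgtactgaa
Chil3, chr3:106167688-106167776, minus strand: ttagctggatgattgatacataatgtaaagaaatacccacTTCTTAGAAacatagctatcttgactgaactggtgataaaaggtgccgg
The motifs began 145 and 172 bases before the RefSeq start of transcription. For Retnla that start lies downstream of the gene start of 48842551 given above, so the distance depends on the annotation. In the 250 bases before the start, TTCNNNNGAA was present in 5.85% and TTCNNNGAA in 7.02% of all 32851 promoters, counting both strands, so the letters alone are common and show no binding.

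Of the 6954 barcodes, 4771 had at least 1000 UMIs and are called cells here (1218 and 675 from DEP 11 and DEP 13, 1296 and 1582 from PBS 2 and PBS 3). Their median depth was 5328.5, 5794, 7115.5 and 5367.5 UMIs in the same order, and the whole libraries summed to 4489342 to 10293703 UMIs, the fewest in DEP 13. Levels are given as UMIs per 1000000 UMIs of the cells (CPM), with exact Poisson 95% intervals that cover counting error only. Cells were placed by 2 levels: Ly6c2-high at 2 or more per 10000 UMIs, and C1qa-high at 10 or more per 10000 UMIs. Within 20% of these limits lay 353 cells (7.4%) for Ly6c2 and 536 cells (11.2%) for C1qa, so the ranges are parts of a gradient and not types. With edgeR's quasi-likelihood test on sums per mouse, all 6 tested monocyte markers other than Ly6c2 were higher in Ly6c2-high C1qa-low cells, and all 12 tested resident macrophage markers other than C1qa were higher in C1qa-high Ly6c2-low cells, against 32.4% of the 6779 tested genes that differed in either direction. All 3 tested plasma cell markers were higher in Ly6c2-high C1qa-low cells too (log2 fold change 1.31 for Jchain, 1.17 for Igha and 1.90 for Mzb1). That range thus held more than monocyte transcripts. In DEP 13, 3.70% of cells were called doublets, against 0.772% to 1.31% in the other mice, and they were kept. Barcode strings shared by libraries numbered 36.

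Retnla was lower in both DEP mice than in both PBS mice, and most of its UMIs lay in very few cells. The gene had 174 and 61 UMIs in DEP 11 and DEP 13 against 555 and 658 in PBS 2 and PBS 3, or 23.8 and 14 CPM against 55.2 and 68.2 CPM. The mean of the DEP mice was 18.9 ± 6.90 CPM and that of the PBS mice 61.7 ± 9.19 CPM (SD, n = 2 per group), a difference of −42.8 CPM, and the groups did not overlap. With a limit of 500 UMIs, DEP 13 stood at 30.3 CPM, above the 23.4 CPM of DEP 11, through 1 barcode of 950 UMIs that held 66 of Retnla. Both DEP mice lay below both PBS mice in 12.8% of all 6609 tested genes and above both in 13.8%, so this order by itself is common.

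Cells with 5 or more Retnla UMIs, a limit chosen after the values were seen, are called Retnla-rich. They numbered 4 of 1218 cells in DEP 11 (0.328%), 3 of 675 in DEP 13 (0.444%), 8 of 1296 in PBS 2 (0.617%) and 7 of 1582 in PBS 3 (0.442%). These 22 cells held 1050 of the 1448 Retnla UMIs: 83.3% of those of DEP 11, 45.9% of DEP 13, 71.4% of PBS 2 and 73.1% of PBS 3. The counting intervals of the shares overlapped in all 4 mice. The highest cell had 94 UMIs for DEP 11, 13 for DEP 13, 149 for PBS 2 and 244 for PBS 3, and the median Retnla-rich cell had 23, 8, 37 and 35. Just inside the limit lay cells with 5, 7, 5 and 6 UMIs, and just outside it cells with 1, 1, 3 and 4. In the cell with 244 UMIs, Retnla made up 3.82% of all its UMIs.

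**Figure D1:**
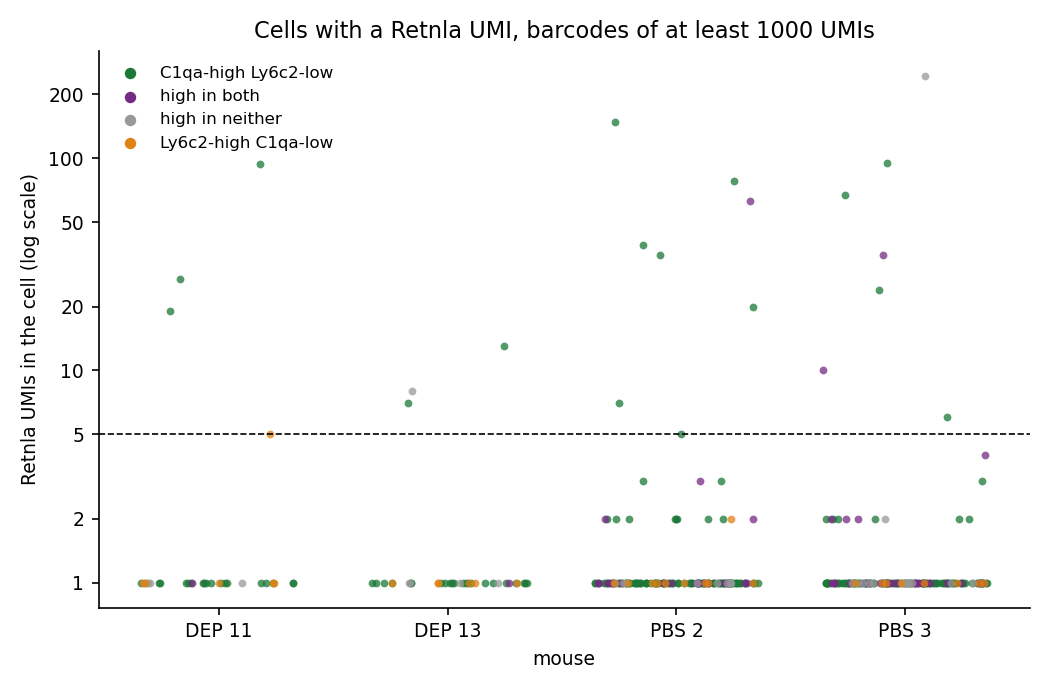
Each point is a cell with at least 1 Retnla UMI, by mouse (horizontal axis) and number of Retnla UMIs (vertical axis, log scale), coloured by its range of Ly6c2 and C1qa, and the dashed line marks 5 UMIs. Nearly all cells sit at 1 UMI, while the 22 cells at or above the line reach 94, 13, 149 and 244 UMIs in DEP 11, DEP 13, PBS 2 and PBS 3.

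The Retnla difference split into these cells and a low level spread over all others. Retnla-rich cells gave 19.8, 6.43, 39.4 and 49.8 CPM of the 4 mice and accounted for 73.6% of the difference between the group means. All other cells together gave the remaining 26.4%. Their level was 3.98 CPM in DEP 11 (29 UMIs, 95% interval 2.66 to 5.71), 7.59 in DEP 13 (33 UMIs, 5.22 to 10.7), 15.9 in PBS 2 (159 UMIs, 13.5 to 18.5) and 18.4 in PBS 3 (177 UMIs, 15.8 to 21.3). Of the 366 other cells with the gene, 340 had 1 UMI. The low level was higher in both PBS mice, as the level from Retnla-rich cells was.

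Within a mouse, the counting intervals of this low level overlapped between all 4 ranges and a lymphoid cluster. In the C1qa-high Ly6c2-low range it was 3.84, 7.16, 15.9 and 17.95 CPM in DEP 11, DEP 13, PBS 2 and PBS 3. In the cluster led by immunoglobulin and T cell receptor genes, which should lack the gene, it was 2.47, 5.07, 12.1 and 12.3 CPM (1, 2, 3 and 9 UMIs). That cluster also had a C1qa UMI in 91.1% of its cells, at 1313 CPM pooled over mice, so it is no macrophage-free control. The low level of the macrophages was not separated from that of this cluster. Barcodes under 500 UMIs, also meant as background, held 5, 0, 6 and 7 Retnla UMIs in DEP 11, DEP 13, PBS 2 and PBS 3. That is 30.5, 0, 49.3 and 56.4 CPM, no lower than the low level of the cells except in DEP 13. The intervals of these barcodes lay above those of the low level in DEP 11 (9.91 to 71.2) and PBS 3 (22.7 to 116), and overlapped them in the other mice. Counts this small cannot tell expression from background, and neither is concluded. A share of cells with a Retnla UMI is therefore not read as a count of expressing cells. It was 2.71%, 5.33%, 11.6% and 10.7% over all cells and 6.67%, 6.25%, 16.7% and 14.5% in the lymphoid cluster. The median lymphoid cell had 11988, 3719, 8222 and 10006 UMIs in the same order of mice. After each cell was thinned to 1000 UMIs, 0.657%, 0.741%, 2.24% and 1.64% of all cells had a Retnla UMI.

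**Figure D2:**
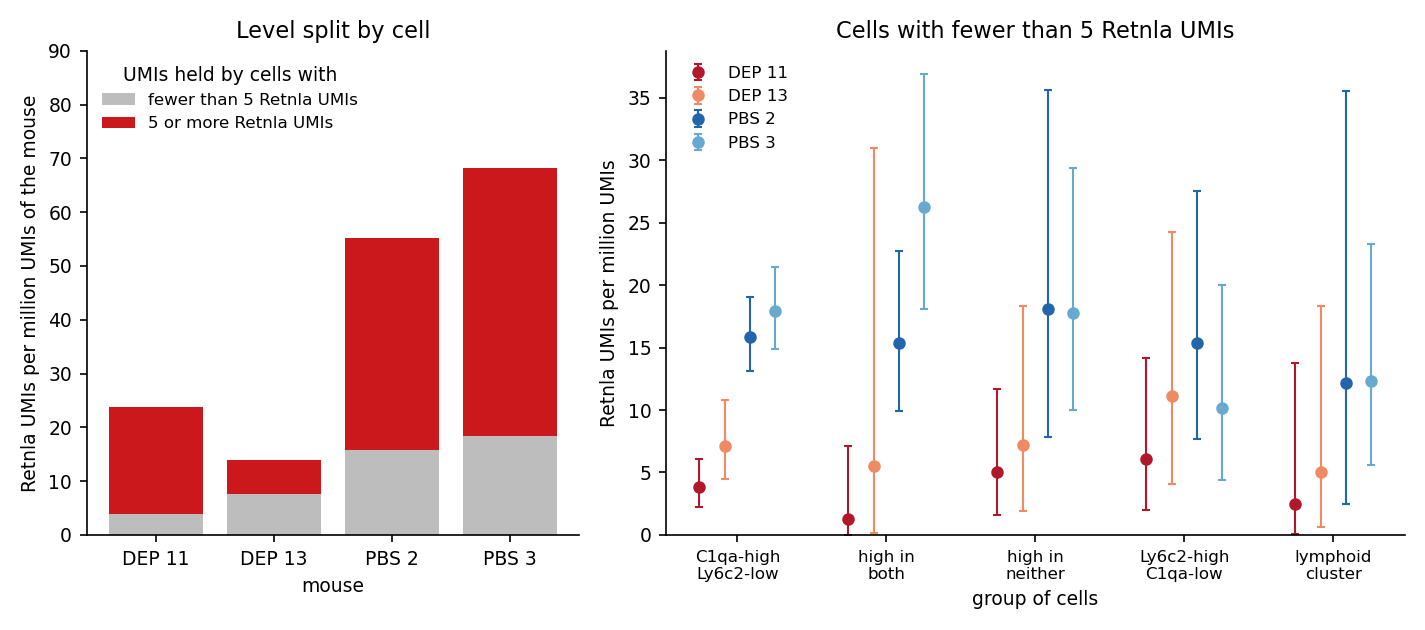
On the left, bars starting at 0 show the Retnla level of each mouse in CPM, split into cells with 5 or more UMIs (red) and all others (grey). On the right, points show the level in the other cells by group of cells and mouse, with exact Poisson 95% intervals, and within each mouse the intervals of all groups overlap, the lymphoid cluster included.

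By range, the C1qa-high Ly6c2-low cells carried the largest share of the Retnla difference, 53.5%. They also held 64.4%, 70.6%, 72.3% and 70.0% of all UMIs of DEP 11, DEP 13, PBS 2 and PBS 3. Their part of the difference was thus below their share of the UMIs. Cells high in neither gene carried 28.3%, cells high in both 19.2%, and Ly6c2-high C1qa-low cells −0.959%. Their shares of the UMIs ran from 4.39% to 13.6%, 4.13% to 16.2% and 7.11% to 12.3% over the mice. In the C1qa-high Ly6c2-low range Retnla stood at 33.5 and 13.6 CPM in DEP 11 and DEP 13 against 61.6 and 46.3 CPM in PBS 2 and PBS 3, and the groups did not overlap, as in 15% of the genes tested there. In cells high in both it was 1.28, 5.56, 54.0 and 61.9 CPM (1, 1, 88 and 78 UMIs), again without overlap, as in 15.4% of genes (13.7% in the other direction). Retnla was also the 1 gene of 6228 (0.0161%) that edgeR called between DEP and PBS in those cells, from which nothing is read, since the contrast chose it, and without the Retnla-rich cells no gene was called there. In cells high in neither, the level was 5.02, 21.4, 18.1 and 305 CPM, and the groups overlapped. The 244 UMIs of 1 cell made the value of PBS 3, and without that mouse the part carried by this range was 0.923 CPM in the other direction. In the Ly6c2-high C1qa-low range, 12.0, 11.2, 15.4 and 10.2 CPM did not separate the groups, and 16.3% of the genes tested there were lower and 13.7% higher in both DEP mice.

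The log2 fold change of Retnla between DEP and PBS mice was −1.14 (SE 0.30) in C1qa-high Ly6c2-low and −0.09 (SE 0.48) in Ly6c2-high C1qa-low cells. Fitted together with the mouse as a block, these differed by 0.96 (SE 0.52), and the sign turned with C1qa at 20 per 10000 (−0.44) or Ly6c2 at 4 per 10000 (−0.34), so no effect particular to a range was shown. Of all 6779 genes 0.339% passed the edgeR test of this difference, 0.133% with a positive and 0.207% with a negative value. By cluster, the largest parts lay in 2 groups of cells: cluster 2, led by Saa3, Ly6i and Cxcl9, with 48.7%, and cluster 8 with 48.3%. The 3 genes had been left out when the cells were clustered. Retnla ranked first among the leading genes of cluster 8, which had to be seen in a minimum share of its cells. It passed that minimum narrowly, in 22 of 207 cells (10.6%), nearly all from PBS mice, so nothing is read from the rank. The part of cluster 2 rested mostly on 2 cells, those of 149 UMIs in PBS 2 and 244 UMIs in PBS 3. Without Retnla-rich cells the Retnla level of cluster 2 was 4.63, 5.45, 18.1 and 24.5 CPM in DEP 11, DEP 13, PBS 2 and PBS 3. Cluster 6, led by Cxcl1, Pxdc1 and Apol7c, went the other way with −14.1%, through the DEP 11 cell of 94 UMIs.

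Between the ranges themselves, Retnla and Chil3 had opposite orders. Retnla was lower in Ly6c2-high C1qa-low cells than in C1qa-high Ly6c2-low cells in 4 of 4 mice, at 12.2 ± 2.27 against 38.8 ± 20.3 CPM (SD, n = 4), which is −1.71 on the log2 scale (SE 0.23, adjusted p = 8.07e-06 by edgeR). This call rested on the Retnla-rich cells, of which 16 were C1qa-high Ly6c2-low and 1 was Ly6c2-high C1qa-low. Without them the log2 fold change was −0.11 (edgeR adjusted p = 0.817). Chil3 was higher in Ly6c2-high C1qa-low cells in 4 of 4 mice, at 784 ± 150.1 against 72.2 ± 33.8 CPM, which is 3.48 on the log2 scale (SE 0.13, adjusted p = 1.74e-13 by edgeR), or 11.2 fold. Of all genes tested, 16.8% were higher and 15.6% lower in this comparison.

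**Figure D3:**
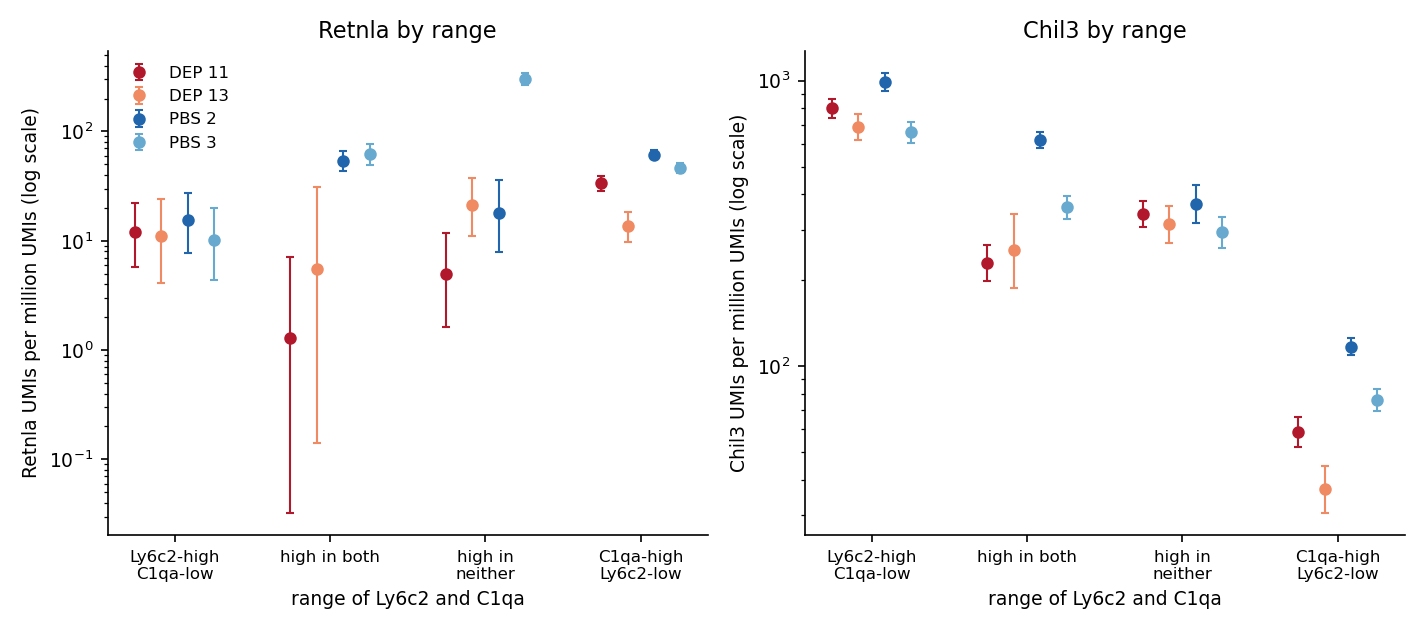
Points show Retnla (left) and Chil3 (right) in CPM (log scale) in each range of Ly6c2 and C1qa and each mouse, with exact Poisson 95% intervals. Chil3 falls from between 659 and 990 CPM in Ly6c2-high C1qa-low cells to between 37.0 and 117 CPM in C1qa-high Ly6c2-low cells in every mouse, while Retnla is highest in the PBS 3 cells high in neither gene, where 1 cell holds most of it.

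The Retnla-rich cells were macrophage-like by their C1qa but differed in several genes from C1qa-high Ly6c2-low cells with no Retnla UMI. Other cells of cluster 8 shared a part of these differences. Of the 22, 16 were C1qa-high Ly6c2-low, 3 high in both, 2 high in neither and 1 Ly6c2-high C1qa-low, and 18 had no Ly6c2 UMI. In all, 12 belonged to cluster 8, a group of 207 cells led by Retnla, Mt2, Pmp22, Cxcl1, Cd163, Il1a, Ccl7, Ccl8, Folr2 and Cbr2. Cluster 8 made up 4.27%, 3.85%, 6.10% and 3.16% of the cells of DEP 11, DEP 13, PBS 2 and PBS 3, and 1, 0, 13 and 8 of its cells had a Retnla UMI. Its Retnla level was 127 CPM in DEP 11, 0 in DEP 13 (26 cells, which allows up to 27.3 CPM at 3 counts), 483 in PBS 2 and 947 in PBS 3. Cluster 8 was thus present in all 4 mice, and its cells with Retnla were mostly those of PBS mice. None of the 22 was a called doublet, and 1 belonged to the lymphoid cluster.

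Pooled over mice and set beside C1qa-high Ly6c2-low cells with no Retnla UMI, the Retnla-rich cells were higher in Fn1 (fibronectin, 343 against 35.9 CPM, in 12 of 22 cells), F13a1 (coagulation factor XIII A, 472 against 60.5 CPM, in 15) and Ccl6 (a CC chemokine, 3166 against 496 CPM, in 22). The chemokine Ccl9 stood at 1842 against 411 CPM, the C-type lectin Mgl2 at 741 against 194 CPM, and the calcium-binding S100a4 and S100a6 at 667 against 130.1 and 2416 against 548 CPM. Lower were the MHC class I-like H2-M2 (9.26 against 252 CPM), Apol7c (27.8 against 254.9), the fractalkine receptor Cx3cr1 (129.6 against 431) and Ms4a7 (546 against 1902). In the other cells of cluster 8, H2-M2 and Apol7c were low too (40.7 and 52.9 CPM), while Cx3cr1 stood at 486 and Ms4a7 at 1421 CPM. These genes were picked by their ratio, so they describe the 22 cells and are not tested. By the rule that sets cells with at least 2 Retnla UMIs against cells with none within each mouse (4, 3, 22 and 19 carrying cells), the 10 genes whose lowest ratio was highest were Mgl2, Ccl6, Akap13, Ahnak, Tppp3, Crip1, Itgax, Anxa2, Ankrd11 and Lgals1. For Mgl2 the ratio ran from 1.55 to 2.96 and for Ccl6 from 1.52 to 5.49 over the 4 mice.

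Of the 28 other alternative activation genes listed, 19 had a UMI in the Retnla-rich cells, and the share over all genes was not counted. The list summed to 3536 CPM there, against 1329 CPM in all other cells, monocytes included, and 2157 CPM in cluster 8 as a whole. Mgl2 and F13a1, picked above by their ratio, gave 741 and 472 CPM of the 3536. These values too are a description. Set again beside C1qa-high Ly6c2-low cells with no Retnla UMI, the scavenger receptor Cd163 stood at 129.6 against 3.32 CPM (in 8 of 22 cells). The eotaxin Ccl24 stood at 305 against 12.2 CPM (in 8), the fatty acid receptor Cd36 at 204 against 23.0 CPM (in 10) and the lectin Clec10a at 222 against 51.7 CPM (in 8). The other cells of cluster 8 had 48.8, 18.3, 88.5 and 76.3 CPM of Cd163, Ccl24, Cd36 and Clec10a. Other detected genes of the list were lower: Tgm2 (27.8 against 52.8 CPM), Msr1 (55.5 against 84.5), Il1rn (46.3 against 69.8) and Mmp12 (64.8 against 80.2). Of the 4, 3, 8 and 7 Retnla-rich cells of DEP 11, DEP 13, PBS 2 and PBS 3, 2, 2, 2 and 2 had a Cd163 UMI. Ccl24 UMIs were seen in 0, 1, 3 and 4 of them, Cd36 UMIs in 0, 0, 6 and 4, and Clec10a UMIs in 1, 0, 4 and 3. With so few cells, no difference between the DEP and PBS cells is read. Ccl17, Ccl22, Pdcd1lg2, Alox15 and Il4i1 had no UMI in any of the 22. They stood at only 3.27, 1.25, 3.01, 0 and 3.89 CPM in the comparison cells, so no lack particular to the 22 is read. Lyve1, a hyaluronan receptor of perivascular and serosal macrophages, stood at 148 against 2.49 CPM in the same comparison, in 6 cells. Cells with UMIs of at least 2 of Lyve1, Cd163 and Ccl24, a set chosen after the values were seen, numbered 4, 4, 8 and 8. These were 0.328%, 0.593%, 0.617% and 0.506% of the cells of DEP 11, DEP 13, PBS 2 and PBS 3, which did not separate the groups. Of these cells, 0, 1, 3 and 3 had Retnla.

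Markers of other cell types were looked up in the Retnla-rich cells. The defining eosinophil markers Siglecf, Epx, Prg2 and Ccr3 had no UMI in the 22 cells, while Ear1 had one in 2 cells, and the list summed to 18.5 against 16.5 CPM in all other cells. Gata6 and Timd4 of large peritoneal macrophages had no UMI either. Of the 10 serosal macrophage markers, 4 including Lyve1 were detected, at a sum of 222 against 26.6 CPM in all other cells. The fibroblast list summed to 426 against 13.2 CPM, of which 333 CPM were Dcn in 1 cell. The plasma cell list summed to 13386 against 10105 CPM and the T cell list to 9.26 against 60.9 CPM. All 13 resident macrophage markers were detected, at a sum of 32132 against 43775 CPM. Of the 10 monocyte markers, 9 were detected, at a sum of 1898 against 2102 CPM. Beside C1qa-high Ly6c2-low cells with no Retnla UMI, Ccr2 was higher (629 against 356 CPM) and Thbs1 lower (27.8 against 66.9 CPM). Among resident markers Adgre1 was lower (250 against 452 CPM) and Mrc1 higher (380 against 188 CPM). The part of these other cell types in the Retnla level was not tested.

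**Figure D4:**
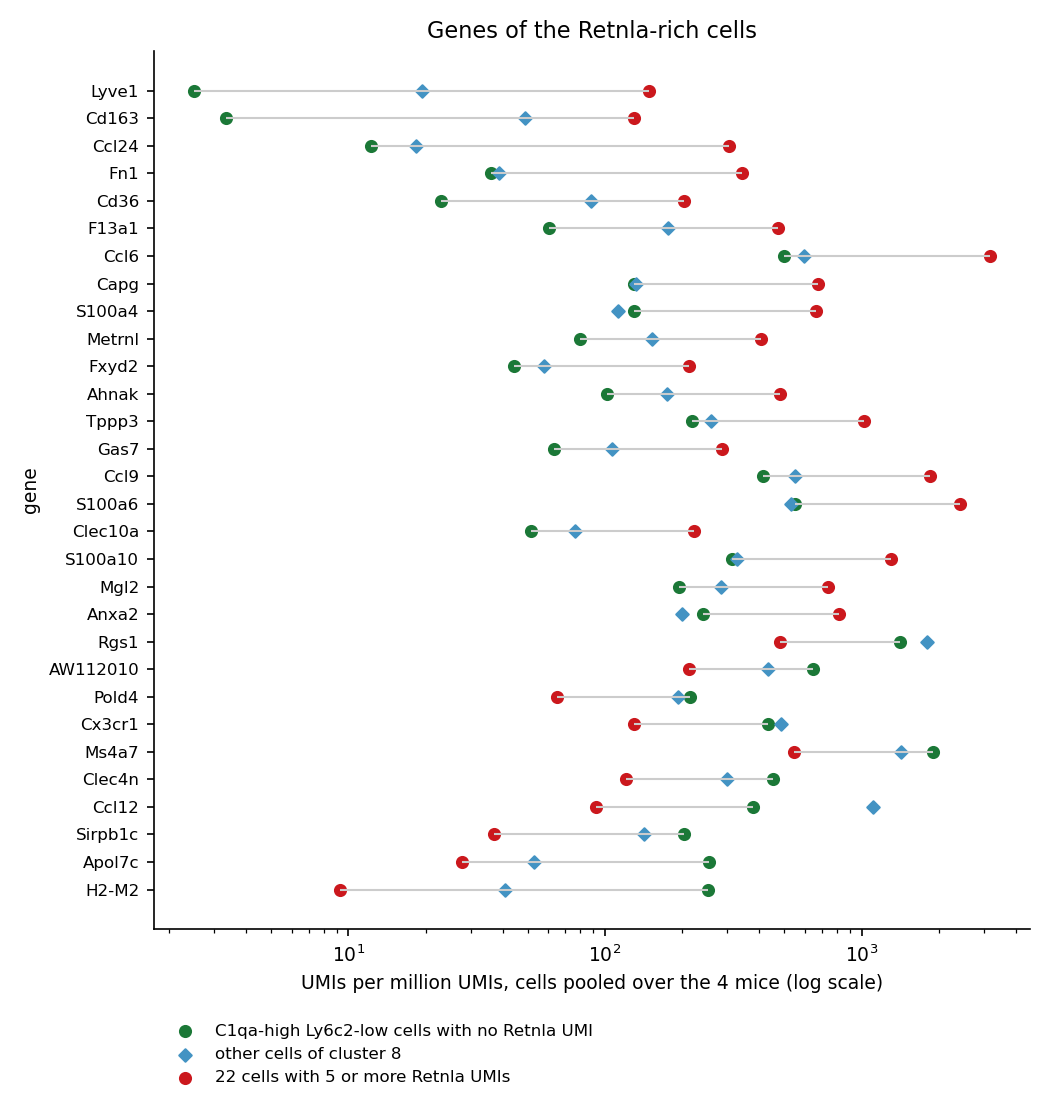
Each row is a gene, with its level in CPM (log scale, cells pooled over the 4 mice) in the 22 cells with 5 or more Retnla UMIs (red), in the other cells of cluster 8 (blue diamonds) and in C1qa-high Ly6c2-low cells with no Retnla UMI (green). Ccl6 reaches 3166 CPM in the red group against 496 in the green and 594 in the blue, while Cd163 is at 129.6, 3.32 and 48.8 CPM.

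Chil3 followed the monocytes. It had 1461, 707, 2733 and 1738 UMIs in DEP 11, DEP 13, PBS 2 and PBS 3, or 199, 162, 272 and 180.0 CPM, so the groups overlapped over all cells. Cluster 5 (561 cells), led by Ifitm6, Chil3, Mgst1, Hp and Ly6c2, held 52.0%, 61.4%, 53.8% and 51.4% of its UMIs at 1284, 1005, 1812 and 1127 CPM. The 10 cells with the most Chil3 UMIs held 16.3% to 29.4% of a mouse's total, against 57.4% to 86.8% for Retnla, so Chil3 was spread over many monocytes while Retnla was not. Among C1qa-high Ly6c2-low cells it stood at 58.7, 37.0, 117 and 76.1 CPM, against 41.2, 83.6, 68.8 and 66.9 CPM in the lymphoid cluster, which should lack it. The counting intervals overlapped in DEP 11, PBS 2 and PBS 3, and in DEP 13 the macrophages were lower. The macrophage level was thus not separated from that of this cluster, which carried C1qa too and is no clean background. Barcodes under 500 UMIs stood at 91.6, 64.5, 156 and 72.5 CPM of Chil3 (15, 4, 19 and 9 UMIs). Their counting intervals overlapped those of the C1qa-high Ly6c2-low cells in every mouse. A Chil3 UMI was found in 23.3%, 15.4%, 41.5% and 29.0% of C1qa-high Ly6c2-low cells and in 33.3%, 40.6%, 27.8% and 41.8% of lymphoid cells.

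The order of the ranges by Chil3 was not the same in all mice below the top. Ly6c2-high C1qa-low cells had the most in every mouse (800, 688, 990 and 659 CPM) and C1qa-high Ly6c2-low cells the least. In between, cells high in neither were above cells high in both in DEP 11 (341 against 230 CPM) and DEP 13 (315 against 256 CPM), and below them in PBS 2 (371 against 620 CPM) and PBS 3 (294 against 361 CPM), and the counting intervals overlapped in DEP 13 and PBS 3. Along Ly6c2, Chil3 went from 114, 80.1, 132 and 103 CPM in cells with no Ly6c2 UMI to 733, 739, 1402 and 936 CPM in cells above 10 per 10000 UMIs. Along C1qa, it went from 571, 515, 761 and 470 CPM in the lowest 20% of cells to 36.5, 20.7, 61.7 and 46.6 CPM in the highest 20%. Retnla was highest at 94.9 CPM in the next to highest step of DEP 11, 122 CPM in the middle step of PBS 2, and 47.0 and 158 CPM in the next to lowest step of DEP 13 and PBS 3. The single cells of 94, 149 and 244 UMIs lie in these steps of DEP 11, PBS 2 and PBS 3, so no order along C1qa is read from them.

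**Figure D5:**
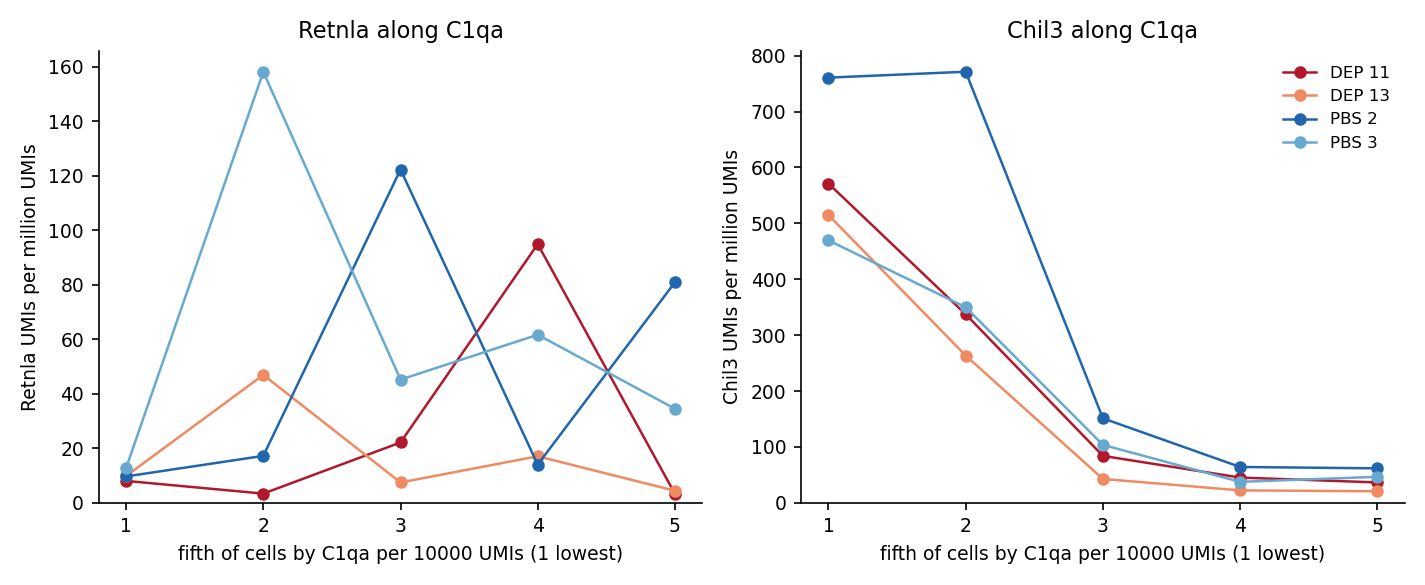
Lines show Retnla (left) and Chil3 (right) in CPM for each mouse over 5 steps of equal cell number from the lowest to the highest C1qa per 10000 UMIs. Chil3 goes from 470 to 761 CPM in the lowest step to 20.7 to 61.7 CPM in the highest, while the peaks of Retnla lie in steps that hold single cells of 94, 149 and 244 UMIs in DEP 11, PBS 2 and PBS 3.

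Between DEP and PBS mice, Chil3 overlapped in Ly6c2-high C1qa-low cells and did not in the C1qa-high ranges. In those 2 ranges both DEP mice were lower in 15% and 15.4% of all tested genes too. In Ly6c2-high C1qa-low cells the means were 744 ± 79.1 and 824 ± 234 CPM (SD, n = 2 each) and the groups overlapped. In C1qa-high Ly6c2-low cells they were 47.9 ± 15.3 and 96.4 ± 28.8 CPM without overlap, at a level not separated from that of the lymphoid cluster. In cells high in both they were 243 ± 17.9 and 491 ± 184 CPM without overlap. Leaving out PBS 2 turned the sign of the difference in Ly6c2-high C1qa-low cells, to 85.2 CPM.

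Arg1 was nearly absent. Among cells, DEP 11 had 2 UMIs, DEP 13 had 0, PBS 2 had 1 and PBS 3 had 31, and the 0 of DEP 13 allows up to 0.689 CPM (3 counts). Of the 31, 13 lay in 1 cell of PBS 3, which had 1 C1qa UMI and belonged to cluster 2, and 4 in a Ly6c2-high C1qa-low cell of the lymphoid cluster. All other cells with Arg1 had 1 or 2 UMIs. The gene did not pass the filter and was not tested, and at this depth a difference between DEP and PBS mice was not detectable. Nos2 had no UMI in any cell. The 22 Retnla-rich cells held no Arg1 and at most 2 Chil3 UMIs each, and the cell with 13 Arg1 UMIs held 1 Retnla and no Chil3 UMI.

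Genes whose pattern was most like each member were sought over 39 sums of a cluster in a mouse (at least 20 cells, 4111 genes). Chil3 went with Mcemp1 (Pearson r = 0.96), Plac8 (0.92), Mgst1 (0.92), Lsp1 (0.91) and Ifitm3 (0.90). For Retnla no gene passed 0.53 (Taf12), and its correlation with Chil3 was 0.19. Arg1 was nearest to Iglc2 (0.61) and other immunoglobulin genes. The sums share mice, clusters and depth, and these values are a description.

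The wider IL-4 and alternative activation genes had members higher and lower in each range, in a comparison where 16.8% of all tested genes were higher and 15.6% lower in Ly6c2-high C1qa-low cells. Of 9 tested genes of IL-4 and IL-13 receptors and signalling, 3 were higher and 2 lower in Ly6c2-high C1qa-low cells, at a median log2 fold change of 0.23 against −0.01 over all genes. The receptor chain Il4ra was lower (49.9 ± 22.2 against 97.1 ± 40.5 CPM, n = 4, log2 fold change −0.99) and so was the signalling adaptor Irs2 (−1.55). Its partner chains Il13ra1 (0.71) and Il2rg (0.33) and the transcription factor Klf4 (0.85) were higher. Of 16 other alternative activation genes, 2 were higher and 8 lower, at a median of −0.57. The mannose receptor Mrc1 stood at 40.7 ± 10.3 against 193 ± 23.7 CPM (log2 fold change −2.27), with the elastase Mmp12 (−2.58), the growth factor Igf1 (−2.32) and Cd36 (−2.23) also lower, while F13a1 (2.41) and Ear2 (1.42) were higher.

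Of 8 tested genes of arginine and polyamine metabolism, 4 were higher and 1 lower in Ly6c2-high C1qa-low cells (median 0.33), against the same 16.8% and 15.6% of all genes. Higher were the spermine synthase Sms (log2 fold change 1.12), the argininosuccinate synthase Ass1 (0.63), the antizyme inhibitor Azin1 (0.61) and the antizyme Oaz1 (0.23). The ornithine aminotransferase Oat was lower (−0.50). Of 12 tested classical activation genes, 1 was higher, the interferon regulatory factor Irf5 (0.75), and 4 were lower, Tnf (−0.54), the costimulatory Cd86 (−0.48), Socs3 (−0.44) and Il1b (−0.23), at a median of −0.43. None of the 9 paralogues passed the filter. All these calls are from edgeR's quasi-likelihood test at an adjusted p of 0.05 or less.

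Between DEP and PBS mice, edgeR called none of these genes. Over all cells 0 of 6609 genes (0%) passed, with 171 at an unadjusted p under 0.05, and DESeq2 called 4. In the C1qa-high Ly6c2-low range 0 of 6906 (0%) passed, with 269 at an unadjusted p under 0.05, and DESeq2 called 6. The median log2 fold change over all cells was −0.03 for the 9 signalling genes, −0.10 for the 16 other alternative activation genes, −0.06 for the 8 genes of arginine metabolism and 0.03 for the 12 classical genes, against −0.01 over all genes. The gene with the smallest p of each list failed the correction: Irs2 (log2 fold change 0.41), Egr2 (−0.53), Asl (−0.29) and Cxcl10 (−0.61), each with an edgeR adjusted p of 0.997. The tissue dissociation list of immediate early and heat shock genes moved with the groups, with 17 of 17 genes lower in DEP mice at a median of −0.54 and a summed level of 12775 and 11026 CPM in DEP 11 and DEP 13 against 16267 and 14320 CPM in PBS 2 and PBS 3, none of them called. Its part in the Retnla difference was not tested.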

How the data were processed

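The deposited table holds UMI counts, whole numbers per gene and barcode that the authors did not normalize. The submitters' processing notes name Cell Ranger, STAR 2.6.1a, R 3.5.1 and mm10, and how barcodes were filtered before deposit is unknown here. The mouse of a barcode came from its suffix, and 28339 genes were named from GENCODE M21. The members and gene lists were chosen with earlier results of these data known.

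Cells with at least 1000 UMIs were clustered without the 3 genes (scanpy 1.11.5, 1000 variable genes, 30 components, 10 Ward clusters), and doublets were scored with scrublet at an expected rate of 6%. Counts were summed per mouse and range. Genes over 1 CPM in at least 2 sums and detected in at least 5% of cells were tested by the quasi-likelihood test of edgeR 4.0.16 (R 4.3.3, TMM, Benjamini-Hochberg 5%), with the mouse as a block between ranges, and the tests were run on simulated counts beforehand. DESeq2 1.42.0 and other settings were alternatives. With 2 mice per group, p-values rest on few samples. Named genes were up to 4 per direction and list past the threshold by log2 fold change, or the smallest p where none passed. Likeness was Pearson r of log2(CPM + 5).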

Additional observations from a re-analysis of the deposited data

Results flagged for a closer look

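A barcode of DEP 13 with 950 UMIs, just under the limit of 1000 and therefore in no comparison, held 66 Retnla UMIs, more than all 61 in the 675 cells of that mouse. Of its UMIs 10.9% were mitochondrial. With a limit of 500 UMIs, Retnla in DEP 13 went from 14 to 30.3 CPM, against 23.4 in DEP 11, 55.8 in PBS 2 and 68.1 in PBS 3, so the groups still did not overlap.

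The DEP effect differed between C1qa-high Ly6c2-low and Ly6c2-high C1qa-low cells for 23 of 6779 genes (0.339%, edgeR interaction with the mouse as a block, 452 at an unadjusted p under 0.05; DESeq2 called 14). Chil3 is 1 of them, from which nothing is read, since its difference was known from earlier results of these data. Its level in C1qa-high Ly6c2-low cells was also not separated from that of the lymphoid cluster. Of the other alternative activation genes Ear2 was among them. C1qa, which sets the ranges, and the plasma cell genes Igha, Igkc and Jchain were among them too, and their part in these differences was not tested.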

How the results depend on the processing

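The fitted log2 fold changes between the ranges were −2.90 to −0.11 for Retnla and 3.07 to 3.93 for Chil3 over the alternatives run (Retnla did not pass the filter in thinned cells). Without cells of at least 5 Retnla UMIs the Retnla call was lost (−0.11) and its order turned in both DEP mice, with 6.08 against 3.84 CPM in DEP 11 and 11.2 against 7.16 CPM in DEP 13. These cells and doublets were left out as alternatives chosen after seeing the data. Without the replicate block the values were −1.71 and 3.43. No paired analysis was possible because DEP and PBS mice share no replicate number. Retnla CPM between DEP and PBS mice went from −42.8 to −11.7 without the 10 cells of the most Retnla, −11.3 without Retnla-rich cells and −56.5 in thinned cells, and ran from −49.3 to −36.3 without 1 mouse. The part in C1qa-high Ly6c2-low cells was −8.66, −8.26 and −31.9 in the same order, −34.8 with C1qa at 5 per 10000, and −28.9 to −16.8 without 1 mouse. The part in Ly6c2-high C1qa-low cells reversed to −1.70 in thinned cells, −2.77 with C1qa at 20 and −0.342 with Ly6c2 at 4. The difference in the share of cells with a Retnla UMI was −1.24 points in thinned cells and −8.42 to −5.80 without 1 mouse. The Retnla difference between the ranges' DEP effects reversed to −0.44 with C1qa at 20 and −0.34 with Ly6c2 at 4. Genes called between the ranges numbered 689 in thinned cells and 1065 with C1qa at 5. Genes called between DEP and PBS numbered, over all cells, 4 by DESeq2, 119 without the filter on low counts and 8 to 35 without 1 mouse. In Ly6c2-high C1qa-low cells they were 3 with C1qa at 5, 1 by DESeq2 and 2 to 41 without 1 mouse. In cells high in both they were 0 under the filter on genes and mitochondrial share, with C1qa at 5, any Ly6c2 UMI or Ly6c2 at 4, without Retnla-rich cells and by DESeq2, and 16 with C1qa at 20, 45 without the filter and 0 to 13 without 1 mouse. In cells high in neither they were 5 with at least 2000 UMIs, 8 with Ly6c2 at 4, 1 by DESeq2, 64 without the filter and 0 to 55 without 1 mouse. In C1qa-high Ly6c2-low cells they were 6 by DESeq2, 101 without the filter and 1 to 26 without 1 mouse. Genes whose DEP effect differed between the ranges numbered 8 in thinned cells, 14 with C1qa at 5, 5 with C1qa at 20, 53 with any Ly6c2 UMI, 14 by DESeq2, 54 without the filter and 13 to 65 without 1 mouse. The causes were not tested. With 2 mice per group, leaving out 1 leaves a lone mouse that is assumed to vary like the others.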
